A study of Rattus norvegicus with 51 samples.

Results

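Collagens are proteins of 3 chains wound into a triple helix, and each chain is the product of a gene of its own. Fibrillar collagens such as types I, III and V form the load-bearing fibrils of the heart's connective tissue. Basement membrane collagens surround each muscle cell and vessel, fibril-associated collagens coat the fibrils, and further types build microfilaments, short-chain networks, anchoring fibrils or sit in the cell membrane. In the heart most of these chains are made by fibroblasts, and the set of chains changes in growth, mechanical load and scarring.

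The collagen chain genes described here were all genes whose symbol consists of Col, a number, the letter a and a number, taken from the annotation of an expression array. Of 18602 genes with a symbol of their own, 36 met this rule, and each was read from its probe set with the highest mean. They fell into 11 fibrillar chains, 7 basement membrane chains, 7 fibril-associated chains and 11 others (types VI, VII, VIII, X, XIII, XVII and XXIII). All 36 were fitted and none was removed for a low signal.

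The cells were ventricular myocytes of neonatal Sprague-Dawley rats, a primary isolate, seeded on silicone membranes that carried fibronectin. The coating was either micropatterned, giving anisotropic tissues, or uniform, giving isotropic tissues. At each of 6, 24 and 96 h there were 5 groups of 3 arrays, which were anisotropic tissue stretched across the pattern (transverse), anisotropic tissue stretched along it (longitudinal), anisotropic unstretched tissue, isotropic stretched tissue and isotropic unstretched tissue. A further group of 6 arrays, 1 for each of 6 cell harvests, held cells kept for 1 h on isotropic fibronectin without stretch and is called 0 h. All 51 arrays came from cells on fibronectin, in a medium with serum. The serum was reduced after the first days, later than the 1 h of the 0 h cells. In comparisons between times a change in serum cannot be told apart from time in culture. The strength and rate of the stretch, and whether animals were pooled, are not stated in the labels. All 10 cardiomyocyte markers were bright, with a mean log2 signal between 11.4 and 12.3 on every array, while 10 fibroblast markers had means between 6.42 and 9.07. In bulk RNA of such cultures fewer cells of a type and less RNA per cell cannot be told apart.

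Values are log2 signals after robust multi-array averaging, so a difference of 1 is a 2-fold change. Differences between groups were fitted with limma across all 18602 genes with the harvest as a term, and a gene was called at a Benjamini-Hochberg adjusted p under 0.05. Of the 51 arrays, 2 stood apart from their labels. On an axis set to 0 at the mean of 24 h and to 1 at the mean of 96 h anisotropic unstretched tissue, the 24 h isotropic stretched replicate 1 lay at 0.902 over all genes, against 0.067 and 0.056 for the other 2 arrays of its group. The 96 h isotropic unstretched replicate 1 lay at 0.216, against 1.034 and 1.007. Both came from harvest 1. Results are given with the arrays as labelled. Values with these 2 left out are added for the counts that moved and for some of the genes whose call changed.

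The names of 2 groups at each time are also in doubt, and every stretch result below rests on them. In the authors' deposited table of fold changes against 0 h, the columns headed sm equalled the labelled anisotropic unstretched groups and those headed ip the labelled isotropic stretched groups, at 24 h for ip with the 2 arrays that stand apart exchanged. The labels do not spell these letters out. Read as s for stretched, i for not stretched, m for isotropic and p for patterned, as the headers of the longitudinal and transverse columns run, they trade the 2 groups. With the groups traded, no collagen was called with stretch at 6, 24 or 96 h by limma, and at 96 h 1, 0 and 9 of 36 had an unadjusted p under 0.05 in transverse, longitudinal and isotropic stretch. The shares of all genes with the groups traded are not given here, so these counts do not set collagens apart from other genes. The differences called below between isotropic stretched and unstretched tissue would then lie between anisotropic and isotropic unstretched tissue. Those called between stretched and unstretched anisotropic tissue would lie between stretched anisotropic and stretched isotropic tissue. The differences between 6 and 96 h in anisotropic unstretched tissue would be those of isotropic stretched tissue. The groups are named here by the sample labels, and these files do not settle which naming holds.

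Sequence at the start of 4 genes or gene pairs is shown because the values of Col6a1, Col7a1 and the pair Col4a3 and Col4a4 were called with stretch at 96 h, and because the pair Col4a1 and Col4a2 was not called. The genes of Col4a1 and Col4a2, the common basement membrane chains, start back to back on rat chromosome 16 with 76 bases between them, and Col4a3 and Col4a4 start back to back on chromosome 9 with 412 bases between them. Col6a1 encodes a chain of the type VI microfilament and Col7a1 the chain of anchoring fibrils. Sequences are RefSeq's for the GRCr8 build, on the plus strand in each case, and capitals mark matches on either strand to the motifs named after them. The stretch between Col4a2 and Col4a1 is chr16:84885521-84885596, and the others are the 250 bases before the start, chr9:91323740-91323989 for Col4a3, chr20:11905440-11905689 for Col6a1 and chr8:118483114-118483363 for Col7a1.
Col4a2 to Col4a1: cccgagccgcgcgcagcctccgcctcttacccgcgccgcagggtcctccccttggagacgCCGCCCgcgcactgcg
Col4a3: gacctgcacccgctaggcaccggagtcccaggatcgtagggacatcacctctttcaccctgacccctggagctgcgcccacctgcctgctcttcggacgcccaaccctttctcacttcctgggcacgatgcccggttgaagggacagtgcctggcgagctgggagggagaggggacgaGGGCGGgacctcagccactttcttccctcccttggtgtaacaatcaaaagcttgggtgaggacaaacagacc
Col6a1: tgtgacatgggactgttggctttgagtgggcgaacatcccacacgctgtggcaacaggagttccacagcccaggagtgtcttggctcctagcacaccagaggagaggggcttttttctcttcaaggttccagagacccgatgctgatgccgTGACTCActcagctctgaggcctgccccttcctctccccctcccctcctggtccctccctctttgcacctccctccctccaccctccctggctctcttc
Col7a1: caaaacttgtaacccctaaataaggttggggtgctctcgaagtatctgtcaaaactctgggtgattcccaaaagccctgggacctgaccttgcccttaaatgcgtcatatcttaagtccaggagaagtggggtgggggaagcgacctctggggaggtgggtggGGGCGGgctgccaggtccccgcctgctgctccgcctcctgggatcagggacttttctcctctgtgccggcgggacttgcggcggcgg
The letters searched on both strands were CCAAT (the CCAAT box), GGGCGG (the GC box), TATAAA (the TATA box), CATTCC (a motif bound by TEAD factors) and TGANTCA (a motif bound by AP-1), and no marked matches overlap. A GC box stands in 3 of these 4 sequences, and 32.4% of the 27457 RefSeq promoters hold one in their 250 bases. The match in Col6a1 is TGANTCA, which 6.4% of all promoters hold and which was in 1 of the 29 collagen promoters searched. Of those 29, 17 held a GC box and 7 a CCAAT box, which 34.3% of all promoters hold. A TATA box was in 4, against 13.1% of all promoters, and the TEAD motif in 4, against 11.8%. Such matches describe the letters only.

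Between the lowest and the highest of the 51 arrays, 24 of the 36 collagen genes spanned at least 1 log2 unit, a share of 66.7%, against 38.9% of all genes. The widest spans were those of Col14a1 (4.53), Col6a3 (4.34), Col8a1 (3.98) and Col3a1 (3.88). By class, spans of at least 1 were found for 8 of 11 fibrillar, 6 of 7 basement membrane, 3 of 7 fibril-associated and 7 of 11 other chains. Probe sets differ in brightness, so levels are compared between arrays for a gene and not between genes. Mean log2 signals ran between 4.85 for the probe set of Col8a2 and 11.67 for that of Col1a1. The median over all genes was 5.97. Col4a3, Col4a4, Col7a1 and Col11a1 had means near it, at 6.22, 6.11, 6.29 and 5.91. Whether such signals stand above the background of the array was not tested.

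**Figure D1:**
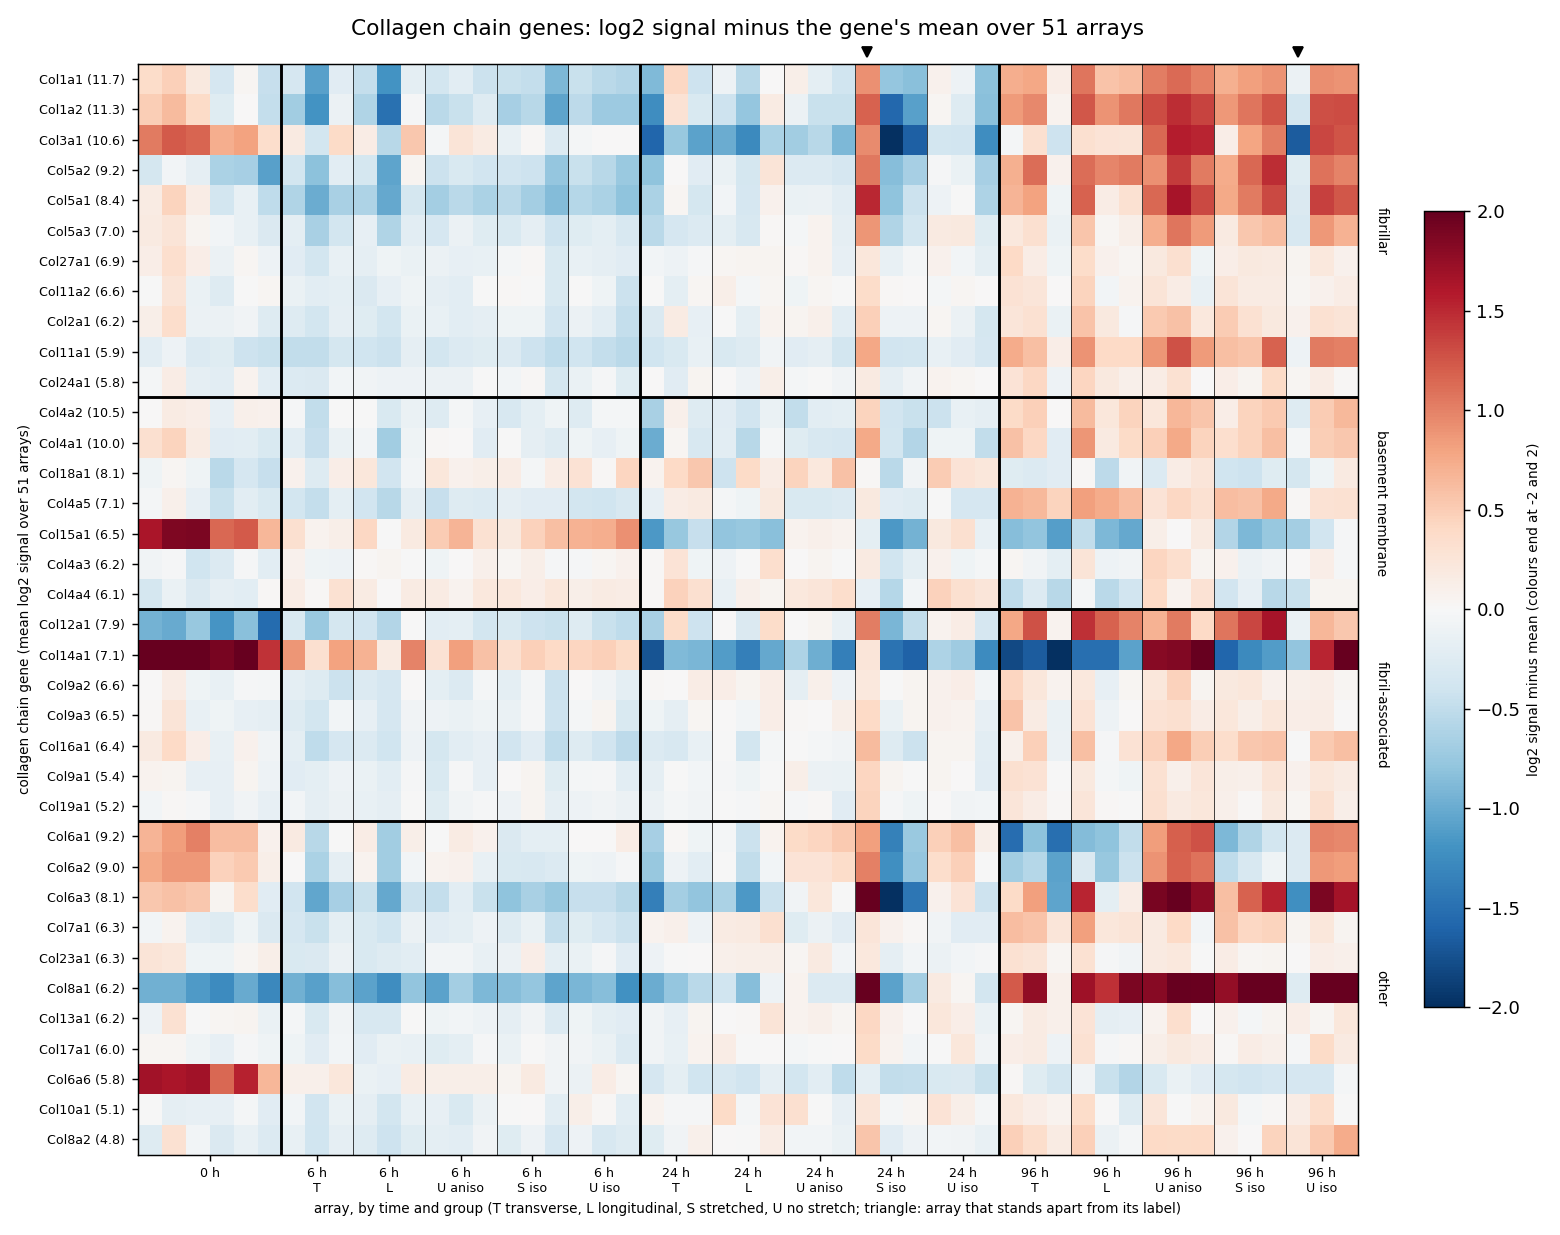
Log2 signal of each of the 36 collagen chain genes (rows, by class, with the mean over 51 arrays in brackets) on each array (columns, by time and group), minus the gene's own mean. Red is above and blue below the mean, and triangles mark the 2 arrays that stand apart from their labels. Col14a1 is high at 0 h and in unstretched tissue at 96 h, while the type I and V chains are low at 6 h and high at 96 h.

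By the labels, the fibril-associated chain Col14a1 and the type VI chains Col6a1 and Col6a2 were lower in anisotropic tissue stretched for 96 h, whichever way it was stretched. No fibrillar chain passed the test as labelled. With the 2 arrays that stand apart left out, 5 of 11 fibrillar chains were lower in transverse and 3 in longitudinal stretch. As labelled, 2 of 36 collagens were higher and 6 lower in transverse stretch than in unstretched anisotropic tissue. There 6.39% of all genes were called higher and 8.65% lower. In longitudinal stretch 2 were higher and 5 lower, against 4.31% and 5.39% of all genes. In isotropic tissue 3 were higher and 2 lower, against 1.51% and 1.43% of all genes. In both directions together 15%, 9.7% and 2.94% of all genes were called in the 3 stretches. Over the 36 collagens the median difference was -0.16 in transverse, -0.18 in longitudinal and 0.07 in isotropic stretch, beside 0.02, 0.01 and -0.01 over all genes.

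Without the 2 arrays that stand apart, 2 collagens were higher and 14 lower in transverse stretch (8.79% and 11% of all genes), 3 higher and 9 lower in longitudinal stretch (6.92% and 7.9%), and 2 higher and 4 lower in isotropic stretch (1.94% and 4.04%). The 2 arrays are not in the anisotropic groups, and they enter these comparisons through the shared estimate of the spread and the harvest terms. Leaving out 1 array of the groups compared also moved the counts. The 8 calls of transverse stretch became 5 without anisotropic unstretched replicate 1, transverse replicate 1 or transverse replicate 2. The 7 of longitudinal stretch became 4 without anisotropic unstretched replicate 1 or 3 or longitudinal replicate 1. The 5 of isotropic stretch became 3 without isotropic unstretched replicate 1 or isotropic stretched replicate 1, and 1 without isotropic stretched replicate 3. Longitudinal and unstretched anisotropic tissue shared 1 harvest at 96 h, and transverse and unstretched shared 2, so those differences rest partly on harvest terms fitted from the other groups. With the 0 h array of the same harvest subtracted in place of that term, Col4a3, Col4a5 and Col7a1 lost their calls in transverse stretch, Col7a1 and Col15a1 in longitudinal stretch, and every chain but Col14a1 in isotropic stretch.

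Col14a1 encodes type XIV collagen, which sits on the surface of fibrils and limits their lateral growth. Its log2 signal at 96 h was 5.33, 5.48 and 5.01 in transverse stretch, 5.63, 5.64 and 6.08 in longitudinal stretch, and 8.97, 8.99 and 9.48 in anisotropic unstretched tissue. In isotropic tissue it was 5.56, 5.87 and 6.02 with stretch, against 6.35, 8.67 and 9.20 without. Every stretched array at 96 h was below every unstretched one, and the unstretched array at 6.35 was the 1 that stands apart. The fitted difference was -3.59 ± 0.38 in transverse stretch (SE, n = 3 each), a 12.1-fold lower signal, with limma adjusted p = 8.2e-08. It was -3.22 ± 0.40 in longitudinal stretch (9.31-fold, limma adjusted p = 3.7e-06) and -2.26 ± 0.37 in isotropic tissue (4.78-fold, limma adjusted p = 0.00035). The isotropic difference was -3.06 with the 2 arrays that stand apart left out, and all 3 calls stayed with each array of the groups left out in turn.

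At the earlier times Col14a1 was not called with stretch as labelled. At 24 h its signal was 5.41, 6.25 and 6.23 in transverse stretch, 6.03, 5.77 and 6.12 in longitudinal stretch, and 6.52, 6.18 and 5.78 in anisotropic unstretched tissue, with overlapping groups. In isotropic tissue at 24 h it was 7.39, 5.66 and 5.53 with stretch, against 6.52, 6.43 and 5.89 without. The array at 7.39 was the 1 that stands apart, and the rest of its group lay below every unstretched array. At 6 h all 15 arrays lay between 7.30 and 8.14. The stretch response differed between 6, 24 and 96 h by limma's moderated F test in isotropic tissue (adjusted p = 0.0436, with 0.344% of all genes passing), in longitudinal stretch (adjusted p = 0.00077, with 1.75%) and in transverse stretch (adjusted p = 9.4e-05, with 2.83%). As labelled no other collagen passed in isotropic or longitudinal stretch, and Col6a1 did in transverse stretch. Without the 2 arrays that stand apart Col6a1 (adjusted p = 0.0094), Col6a2 (0.0202) and Col12a1 (0.0286) also passed in isotropic stretch, Col6a1 (0.00155) and Col6a2 (0.00219) in longitudinal stretch, and Col4a4, Col2a1, Col3a1, Col6a2 and Col6a3 in transverse stretch, with adjusted p of 0.00010 to 0.0491 by the same limma test. The shares of all genes above are those of the fit as labelled, and none is given here for the fit without the 2 arrays. As labelled, the isotropic call of Col14a1 was lost without any of 14 of the 18 arrays of that tissue, and was adjusted p = 0.152 in the same limma test without the harvest term. At 96 h unstretched anisotropic tissue was back near the 0 h group, whose 6 arrays had a lowest signal of 8.59, a median of 9.25 and a highest of 9.54.

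**Figure D2:**
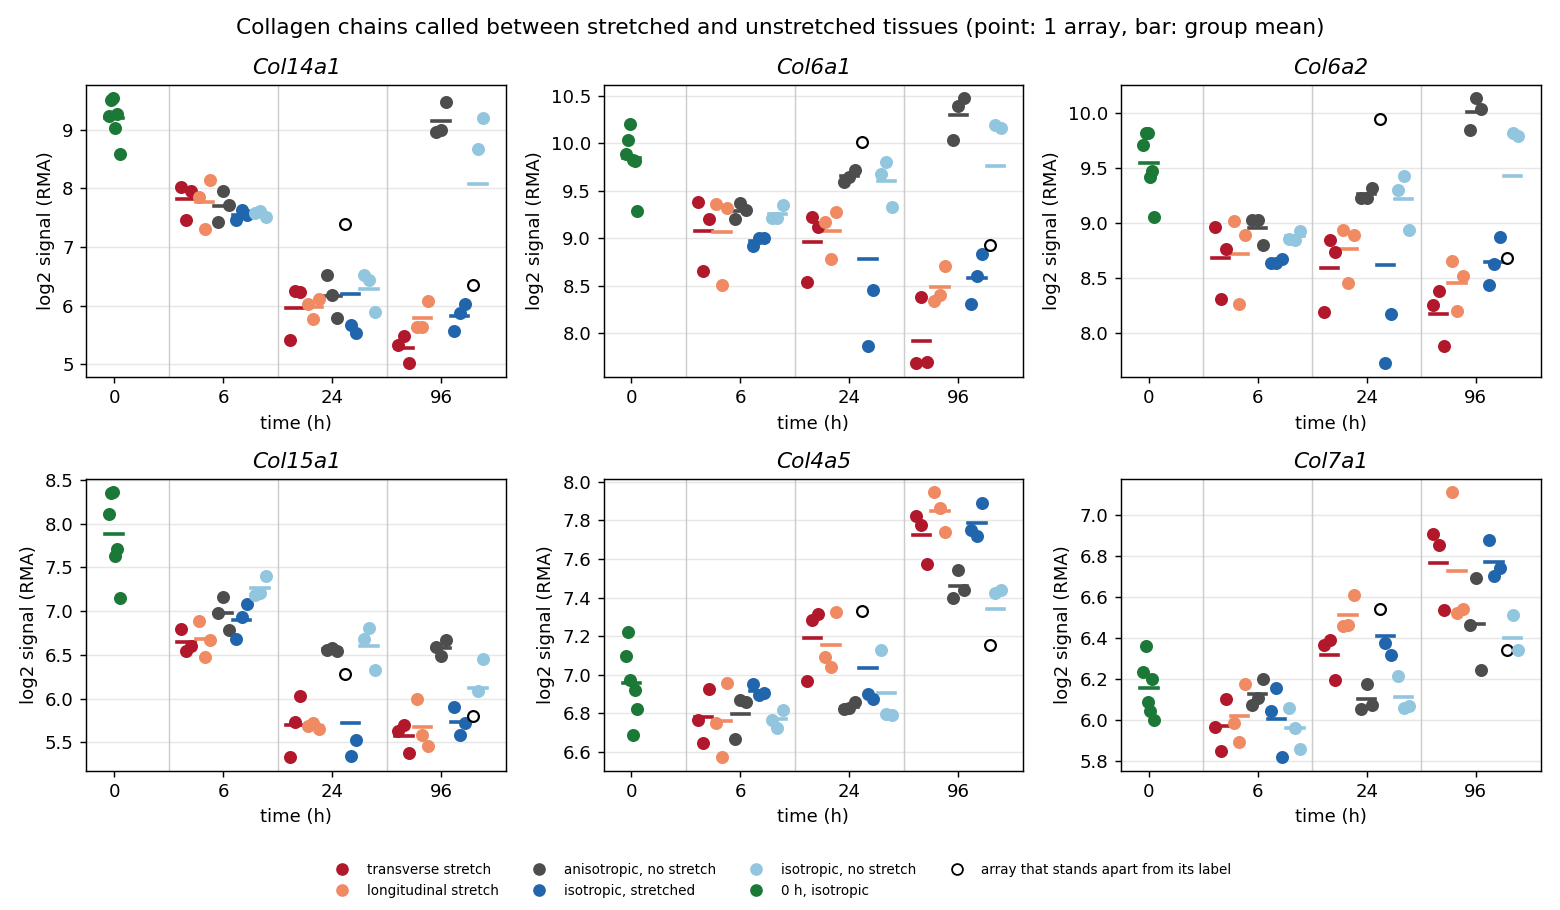
Log2 signal on every array (points) with group means (bars) of Col14a1, Col6a1, Col6a2, Col15a1, Col4a5 and Col7a1 against time in hours. Colours give the tissue and stretch, and open points are the 2 arrays that stand apart from their labels. At 96 h the stretched groups lie below the unstretched ones for Col14a1 and Col6a1, at 5.01 to 6.08 against 6.35 to 9.48 for Col14a1.

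Type VI collagen forms beaded microfilaments around cells, from a chain each of Col6a1, Col6a2 and Col6a3. Col6a1 and Col6a2 lie 97.1 kb apart on chromosome 20, and the motif match before Col6a1 is shown above. At 96 h Col6a1 had a log2 signal of 7.68, 8.38 and 7.69 in transverse stretch, 8.34, 8.40 and 8.71 in longitudinal stretch, and 10.04, 10.40 and 10.48 in anisotropic unstretched tissue. All 6 stretched anisotropic arrays were below the unstretched ones. The difference was -2.17 ± 0.30 in transverse stretch (4.51-fold lower, limma adjusted p = 6.2e-06) and -1.69 ± 0.32 in longitudinal stretch (3.23-fold lower, limma adjusted p = 0.0006).

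In isotropic tissue Col6a1 had 8.31, 8.60 and 8.83 with stretch, against 8.92, 10.19 and 10.17 without, and the groups did not overlap. The difference was -1.18 ± 0.30 (limma adjusted p = 0.0208), and -1.51 without the 2 arrays. As labelled, that call was lost when any of 4 of the 6 arrays was left out (isotropic unstretched replicate 2 or 3, isotropic stretched replicate 1 or 3), with differences between -1.56 and -0.91 over all 6. Its response also differed over time in transverse stretch (F test, limma adjusted p = 0.0161).

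Col6a2 at 96 h had 8.26, 8.38 and 7.88 in transverse stretch, 8.66, 8.20 and 8.52 in longitudinal stretch, and 9.85, 10.14 and 10.04 in anisotropic unstretched tissue. The stretched groups again lay wholly below. The difference was -1.62 ± 0.29 (limma adjusted p = 0.00016) in transverse and -1.36 ± 0.31 (limma adjusted p = 0.0033) in longitudinal stretch. In isotropic tissue it was -0.79 ± 0.28 (limma adjusted p = 0.139), and -1.13 without the 2 arrays (limma adjusted p = 6.3e-05).

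Col6a3, named after its values were seen because it completes the type VI heterotrimer, varied more between replicates. It had 8.50, 8.93 and 7.06 in transverse stretch, 9.63, 7.91 and 8.26 in longitudinal stretch, and 10.01, 10.39 and 9.92 in anisotropic unstretched tissue at 96 h. Stretched arrays were below unstretched ones here too, with longitudinal replicate 1 close to them. The differences of -1.63 ± 0.61 (limma adjusted p = 0.0705) and -1.14 ± 0.65 (limma adjusted p = 0.32) did not pass as labelled. They passed with the 2 arrays that stand apart left out, at -1.74 (limma adjusted p = 3.4e-05) and -1.21 (limma adjusted p = 0.006). Whether the 3 chains differ from each other in their response was not tested. The chain Col6a6 differed by 0.10 in transverse, 0.05 in longitudinal and -0.12 in isotropic stretch, without passing.

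In the basement membrane class stretch moved chains in both directions. At 96 h 1 of 7 was higher and 3 lower in transverse stretch, 1 higher and 2 lower in longitudinal stretch, and 1 higher and none lower in isotropic tissue. Col15a1, which encodes the multiplexin of the outer basement membrane zone of muscle and capillaries, had 5.63, 5.70 and 5.38 in transverse stretch, 5.99, 5.58 and 5.46 in longitudinal stretch, and 6.59, 6.48 and 6.67 in anisotropic unstretched tissue. Neither stretched group overlapped the unstretched one. The difference was -0.84 ± 0.18 in transverse stretch (limma adjusted p = 0.0013) and -0.62 ± 0.19 in longitudinal stretch (limma adjusted p = 0.0386), and the longitudinal call was lost without any 1 of its 6 arrays, with values of -0.67 to -0.57. In isotropic tissue Col15a1 differed by -0.38 (limma adjusted p = 0.319).

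Col4a4 and Col4a3 encode chains of the minor type IV network known from kidney and lung, and start back to back as shown above. Col4a4 had 5.60, 5.84 and 5.56 in transverse stretch, 6.08, 5.57 and 5.72 in longitudinal stretch, and 6.51, 6.19 and 6.39 in anisotropic unstretched tissue at 96 h. Every stretched array was below the unstretched ones. It fell by 0.68 ± 0.14 in transverse stretch (limma adjusted p = 0.00075) and by 0.64 ± 0.15 in longitudinal stretch (limma adjusted p = 0.0047), a call lost without longitudinal replicate 2. Col4a3 fell by 0.34 ± 0.11 in transverse stretch (limma adjusted p = 0.0322), a call lost without any 1 of 5 of its 6 arrays, with values of -0.42 to -0.30. The mean signals of both chains were near the median of all genes.

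Col4a5, the partner of Col4a3 and Col4a4 in that network, was higher with stretch at 96 h. It had 7.82, 7.78 and 7.57 in transverse stretch, 7.95, 7.86 and 7.74 in longitudinal stretch, and 7.40, 7.54 and 7.44 in anisotropic unstretched tissue. In isotropic tissue it had 7.75, 7.72 and 7.89 with stretch, against 7.15, 7.42 and 7.44 without. All 9 stretched arrays lay above all 6 unstretched ones. The differences were small, 0.34 ± 0.10 (limma adjusted p = 0.0221), 0.39 ± 0.11 (limma adjusted p = 0.017) and 0.45 ± 0.10 (limma adjusted p = 0.009). These calls were lost without any of 4, 3 and 2 single arrays of their groups in transverse, longitudinal and isotropic stretch, with values that stayed between 0.29 and 0.51.

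Col4a1 and Col4a2, the chains of the common type IV network, were not called with stretch at any time. At 96 h Col4a1 averaged 10.23 in transverse and 10.45 in longitudinal stretch, against 10.54 in anisotropic unstretched tissue. Adjusted for the harvest, which turns the sign of the longitudinal value, its differences were -0.13 (95% interval -0.53 to 0.28) and 0.07 (-0.36 to 0.50). Those of Col4a2 were -0.06 (-0.41 to 0.29) and 0.02 (-0.35 to 0.39). The intervals give the range of changes that these arrays do not separate from none. Col18a1, the source of endostatin, differed by -0.19 in transverse, -0.20 in longitudinal and -0.27 in isotropic stretch at 96 h, with limma adjusted p of at least 0.521.

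**Figure D3:**
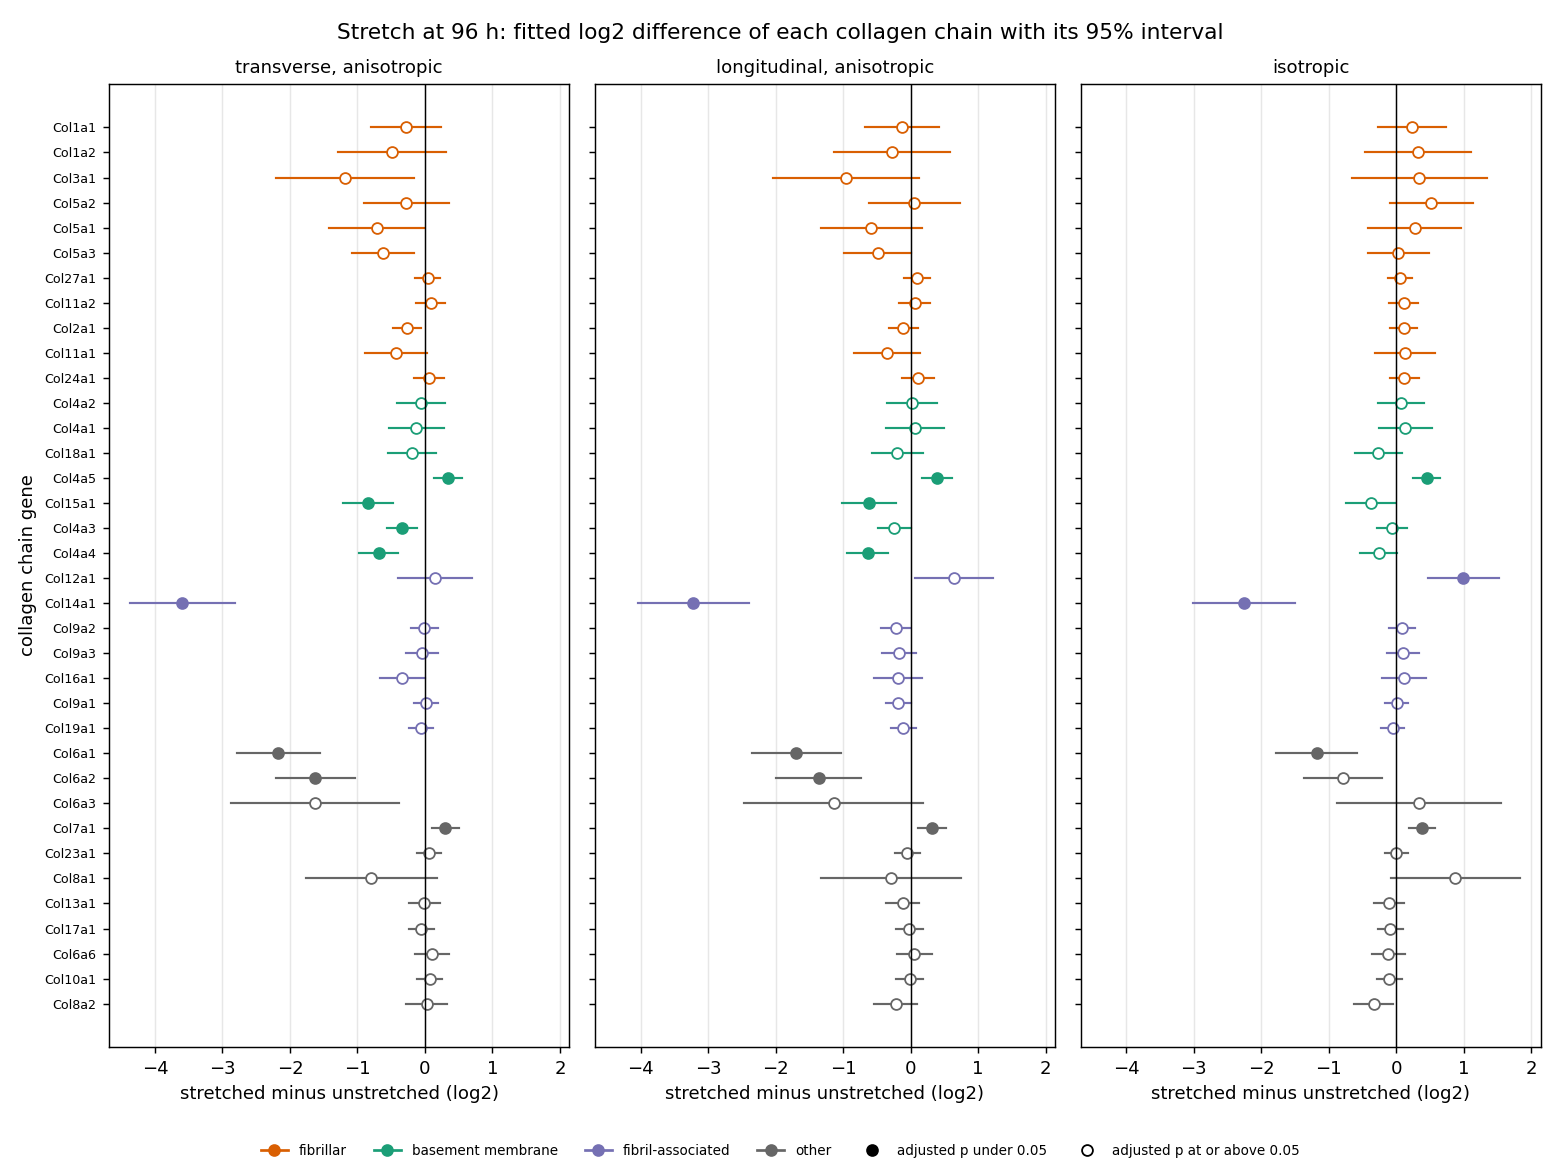
Fitted stretched minus unstretched log2 difference of all 36 collagen chain genes at 96 h, in transverse, longitudinal and isotropic stretch, with 95% intervals. Filled points have a limma adjusted p under 0.05, and colours give the class. Col14a1 lies farthest below 0 in each panel, at -3.59, -3.22 and -2.26.

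Of the 11 fibrillar chains none was called with stretch at any time as labelled. Col1a1, the main chain of type I collagen, had 12.40, 12.44 and 11.81 in transverse stretch, 12.75, 12.24 and 12.30 in longitudinal stretch, and 12.70, 12.80 and 12.68 in anisotropic unstretched tissue at 96 h. Transverse arrays lay below the unstretched ones, and longitudinal ones overlapped them. The differences were -0.28 (95% interval -0.79 to 0.24) and -0.13 (-0.68 to 0.42), and 0.24 (-0.27 to 0.74) in isotropic tissue. Those of its partner Col1a2 were -0.49, -0.28 and 0.33, with limma adjusted p of at least 0.461.

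Type III collagen forms thinner fibrils with type I. Its only chain, Col3a1, had 10.57, 10.92 and 10.19 in transverse stretch, 10.92, 10.88 and 10.87 in longitudinal stretch, and 11.75, 12.18 and 12.13 in anisotropic unstretched tissue at 96 h. The stretched groups did not overlap the unstretched one, and the differences were -1.19 ± 0.50 (limma adjusted p = 0.112) and -0.96 ± 0.53 (limma adjusted p = 0.304). On the array labelled 96 h isotropic unstretched replicate 1 Col3a1 had 8.94, against 11.93 and 11.87 on the other 2 of its group. Without the 2 arrays that stand apart its differences were -1.28 (limma adjusted p = 2.2e-05) in transverse and -1.02 (limma adjusted p = 0.0013) in longitudinal stretch. Then 5 of 11 fibrillar chains were lower in transverse stretch and 3 in longitudinal stretch, none in isotropic stretch, and none was higher. Col5a1, of the type V collagen that starts fibril assembly, was among them, at -0.77 (limma adjusted p = 0.0035) and -0.62 (limma adjusted p = 0.0369). The fibrillar calls therefore depend on those 2 arrays.

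Among the remaining chains, Col7a1 rose a little with stretch. At 96 h it had 6.91, 6.86 and 6.54 in transverse stretch, 7.11, 6.52 and 6.54 in longitudinal stretch, and 6.47, 6.70 and 6.24 in anisotropic unstretched tissue. Both stretched groups overlapped the unstretched one. The harvest-adjusted differences were 0.30 ± 0.10 (limma adjusted p = 0.0299) and 0.31 ± 0.10 (limma adjusted p = 0.0468), and each was lost without any of 4 of the 6 arrays. Without longitudinal replicate 1 the longitudinal value was 0.10. In isotropic tissue it was 0.37 ± 0.09 (limma adjusted p = 0.0218), and 0.31 without the 2 arrays (limma adjusted p = 0.0849), and that call was lost without any of 3 of the 6 arrays.

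Col12a1, a fibril-associated chain of tissues under tension, had 8.94, 9.20 and 9.53 in isotropic stretched tissue at 96 h, against 7.74, 8.53 and 8.40 in isotropic unstretched tissue. The groups did not overlap. The difference was 0.99 ± 0.26 (limma adjusted p = 0.0278), and 0.75 without the 2 arrays that stand apart (limma adjusted p = 0.0215). It was lost without isotropic unstretched replicate 1 or isotropic stretched replicate 2 or 3, with values of 0.71 to 1.18. In anisotropic tissue it had 8.65, 9.14 and 7.94 in transverse and 9.34, 9.06 and 8.87 in longitudinal stretch, against 8.57, 8.92 and 8.27 without stretch. There the groups overlapped, with differences of 0.15 (limma adjusted p = 0.768) and 0.64 (limma adjusted p = 0.172).

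Col8a1 encodes a chain of the short-chain type VIII collagen of vessels and heart. It had 7.46, 8.00 and 6.32 in transverse stretch, 7.93, 7.70 and 8.11 in longitudinal stretch, and 8.05, 8.52 and 8.20 in anisotropic unstretched tissue at 96 h. The transverse arrays lay below the unstretched ones and the longitudinal ones overlapped them. The differences of -0.79 ± 0.48 (limma adjusted p = 0.293) and -0.29 ± 0.51 (limma adjusted p = 0.816) did not pass. The transverse difference of -0.88 passed without the 2 arrays that stand apart (limma adjusted p = 0.0046).

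At 24 h Col15a1 was called in both tissues. As labelled, no collagen was higher and 2 were lower in isotropic stretch (0.978% and 2.95% of all genes), 1 was higher and 1 lower in longitudinal stretch (0.79% and 1.44%), and none passed in transverse stretch (0.538% and 0.919%), where 4 had an unadjusted p under 0.05, beside 13.7% of all genes, and 1 was called without transverse replicate 3. In both directions together 1.46%, 2.23% and 3.93% of all genes were called in transverse, longitudinal and isotropic stretch. Transverse and anisotropic unstretched tissue shared only harvest 4 at 24 h, so their differences rest partly on the harvest terms. Col15a1 had 5.33, 5.73 and 6.03 in transverse stretch, 5.69, 5.72 and 5.65 in longitudinal stretch, and 6.56, 6.58 and 6.54 in anisotropic unstretched tissue. In isotropic tissue it had 6.28, 5.34 and 5.53 with stretch, against 6.68, 6.81 and 6.33 without. All 9 stretched arrays at 24 h were below all 6 unstretched ones, and the array at 6.28 was the 1 that stands apart.

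The difference of Col15a1 was -0.63 ± 0.19 in transverse stretch (limma adjusted p = 0.0899), -0.78 ± 0.18 in longitudinal stretch (limma adjusted p = 0.015) and -0.89 ± 0.18 in isotropic stretch (limma adjusted p = 0.0024). The longitudinal call was lost without any of 4 of its arrays (anisotropic unstretched replicate 2 or 3, longitudinal replicate 1 or 3), and the isotropic call stayed with each array left out. With the 0 h array of the same harvest subtracted both were lost, at -0.74 (limma adjusted p = 0.187) and -0.89 (limma adjusted p = 0.0681). The transverse difference of -0.64 passed without the 2 arrays that stand apart (limma adjusted p = 0.0284).

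Col4a4 at 24 h had 5.94, 5.54 and 6.06 in isotropic stretched tissue, against 6.57, 6.43 and 6.35 in unstretched tissue, without overlap. It fell by 0.60 ± 0.14 (limma adjusted p = 0.0068), a call lost without isotropic unstretched replicate 1 or isotropic stretched replicate 2, or with the 0 h arrays subtracted (limma adjusted p = 0.075). Col7a1 had 6.46, 6.46 and 6.61 in longitudinal stretch, against 6.05, 6.18 and 6.07 in anisotropic unstretched tissue at 24 h, and again the groups lay apart. It rose by 0.43 ± 0.10 (1.35-fold, limma adjusted p = 0.0101), a call lost without anisotropic unstretched replicate 1 or longitudinal replicate 2 or 3, or with the 0 h arrays subtracted (limma adjusted p = 0.0716). Without longitudinal replicate 3 no collagen was called in longitudinal stretch at 24 h, and without any other array of that comparison 1 was.

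The type VI chains at 24 h in isotropic tissue rested on the array that stands apart. Col6a1 had 10.02, 7.86 and 8.45 with stretch, against 9.68, 9.81 and 9.33 without. Its first stretched array lay above every unstretched one and the other 2 below. As labelled the difference was -0.83 ± 0.30 (limma adjusted p = 0.119), and without the 2 arrays it was -1.46 (limma adjusted p = 2.5e-05). The isotropic count at 24 h then came to 9 lower and none higher (4.43% and 2.01% of all genes), with Col6a2 at -1.23, Col6a3 at -1.66 and Col3a1 at -1.28 among them. That count was 6 with isotropic stretched replicate 1 alone left out, and 1 without isotropic unstretched replicate 1. Without the 2 arrays Col6a1 also passed in transverse stretch at -0.70 (limma adjusted p = 0.0349) and in longitudinal stretch at -0.64 (limma adjusted p = 0.0361), as did Col4a5 in transverse stretch at 0.36 (limma adjusted p = 0.0308). Then 1 collagen was higher and 2 lower in each of those stretches (1.41% and 2.31% of all genes in transverse, 1.51% and 3.1% in longitudinal stretch).

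At 6 h no collagen was called in transverse, longitudinal or isotropic stretch by limma, and none had an unadjusted p under 0.05, beside 3.09%, 4.98% and 1.93% of all genes. In these comparisons 0%, 0.0968% and 0.00538% of all genes were called higher and 0% lower. The medians over the 36 chains were 0.01, 0.02 and 0.00. At 6 h transverse and longitudinal stretch each shared only harvest 5 with anisotropic unstretched tissue, so these differences rest partly on the harvest terms. Col1a1 had 11.33, 10.59 and 11.44 in transverse stretch, 11.20, 10.47 and 11.48 in longitudinal stretch, and 11.31, 11.46 and 11.24 in anisotropic unstretched tissue, with overlapping groups.

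The direction of stretch and the layout of the tissue were compared directly. No collagen was called between transverse and longitudinal stretch at 6, 24 or 96 h, where at most 0.0215% of all genes were called in either direction, and at 96 h 2 of 36 had an unadjusted p under 0.05, beside 5.7% of all genes. These were Col9a1 and Col9a2, minor cartilage-type chains, at 0.19 and 0.22. For Col14a1 the transverse minus longitudinal difference at 96 h was -0.37 (95% interval -1.19 to 0.44, limma adjusted p = 0.969), and its transverse arrays of 5.33, 5.48 and 5.01 all lay below the longitudinal ones of 5.63, 5.64 and 6.08. For Col6a1 the difference was -0.48 (95% interval -1.13 to 0.17, limma adjusted p = 0.929) and for Col6a2 -0.26 (-0.88 to 0.36). A p that misses the threshold does not show that the directions act alike, and each of these intervals covers 0.

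Between anisotropic and isotropic unstretched tissue no collagen was called at any time, where at most 0.0161% of all genes were in either direction and at most 0.0108% were higher. At 96 h 9 of 36 had an unadjusted p under 0.05, beside 10.7% of all genes, all higher in anisotropic tissue as labelled, and all 9 had limma adjusted p above 0.96 without the 2 arrays that stand apart. For Col14a1 the difference was 1.07 as labelled and 0.26 without the 2 arrays. F tests of whether the stretch response differed between transverse, longitudinal and isotropic stretch were passed by no collagen at 6, 24 or 96 h, and by 0.0269%, 0% and 0% of all genes.

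With time in culture most chains were higher in anisotropic unstretched tissue. Between 6 and 96 h in anisotropic unstretched tissue 28 of 36 collagens rose and 2 fell, where 13.4% of all genes rose, 16.4% fell and 29.8% did either. By class 8 of 11 fibrillar, 4 of 7 basement membrane, all 7 fibril-associated and 9 of 11 other chains rose, and 1 basement membrane and 1 other chain fell. The median difference was 1.25 for fibrillar, 0.30 for basement membrane, 0.44 for fibril-associated and 0.38 for other chains, beside 0.01 over all genes. Of these 2 groups of 3 arrays, 32 of 36 chains showed no overlap, as did 40.3% of all genes. The 30 calls became 19 without 96 h anisotropic unstretched replicate 2. With the 2 groups traded as the authors' headers read, 22 rose and 5 fell, and Col14a1 was among the 5, at -1.73. No share of all genes is given here for the traded groups.

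**Figure D4:**
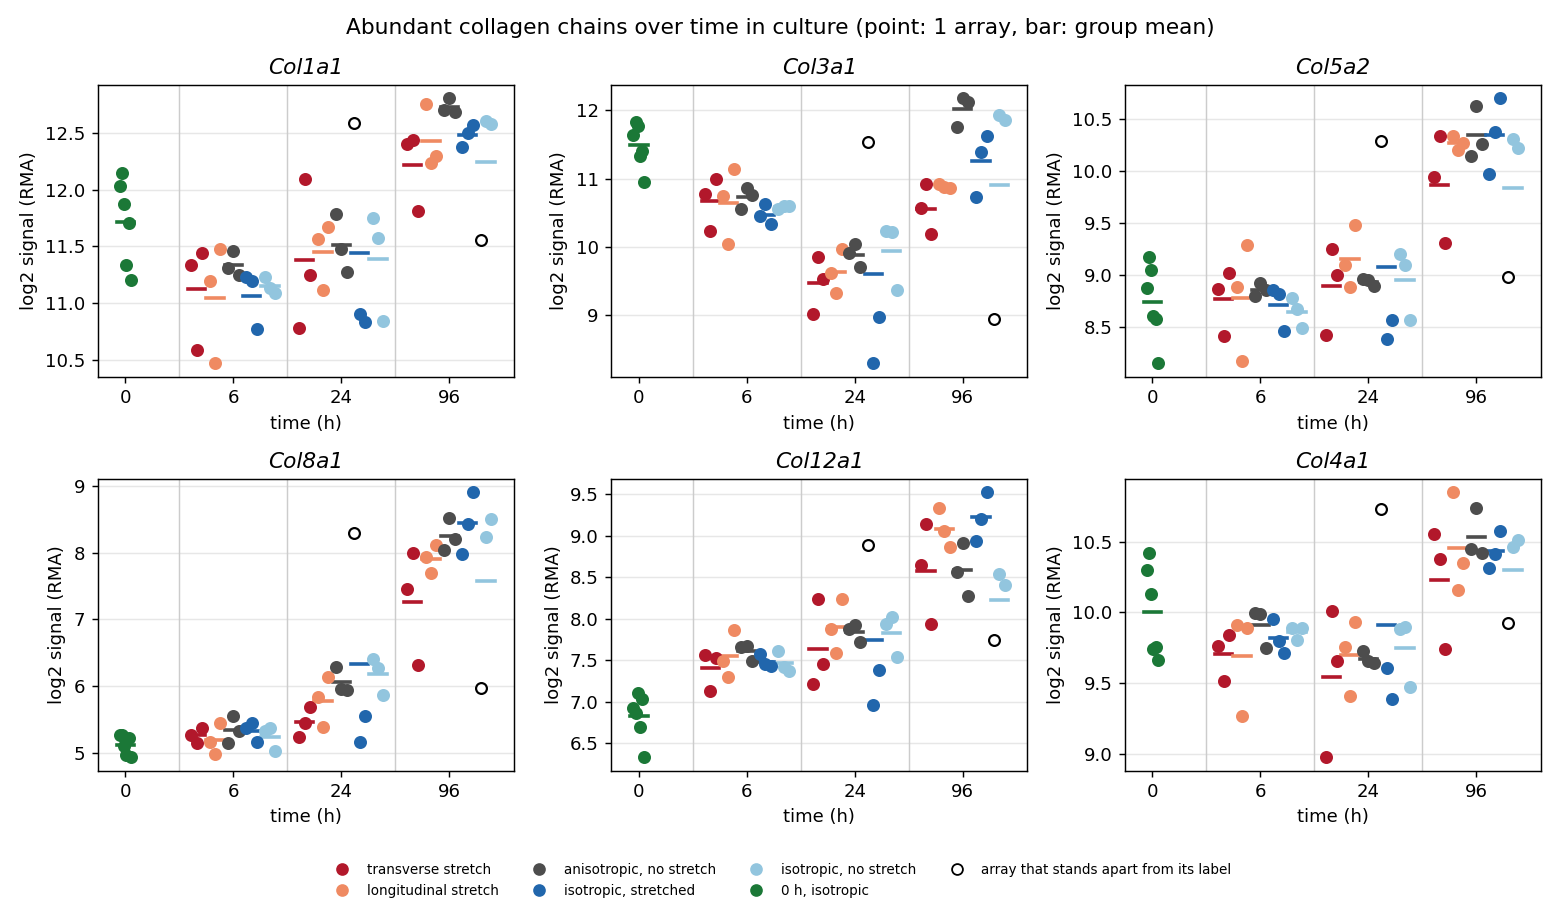
Log2 signal on every array (points) with group means (bars) of Col1a1, Col3a1, Col5a2, Col8a1, Col12a1 and Col4a1 against time in hours. Colours give the tissue and stretch, and open points are the 2 arrays that stand apart from their labels. Col8a1 lies near 5 at 0 and 6 h and, in anisotropic unstretched tissue, at 8.05 to 8.52 at 96 h, while Col3a1 is lowest at 24 h.

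Among fibrillar chains Col5a1 had 9.53, 10.03 and 9.71 at 96 h, against 7.72, 7.85 and 7.76 at 6 h, in anisotropic unstretched tissue. The 2 groups lay far apart relative to their spread. The difference was 1.92 ± 0.35 (3.79-fold, limma adjusted p = 7.2e-05). For Col1a1 it was 1.39 ± 0.26 (2.62-fold, limma adjusted p = 9.1e-05), with 12.70, 12.80 and 12.68 against 11.31, 11.46 and 11.24. Col1a2 rose by 1.85 ± 0.40 and Col5a2, of type V collagen, by 1.48 ± 0.31, also without overlap. Col3a1 differed by 1.25 ± 0.50 (limma adjusted p = 0.0598), and by 1.30 without the 2 arrays that stand apart, where it passed (limma adjusted p = 6.9e-06).

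Col8a1 had 8.05, 8.52 and 8.20 at 96 h, against 5.15, 5.56 and 5.33 at 6 h. Its rise of 2.87 ± 0.48 (7.32-fold, limma adjusted p = 2.7e-05) was the largest of the 36 in this comparison. Of the type VI chains Col6a3 rose by 2.22 ± 0.62 (limma adjusted p = 0.0058), Col6a1 by 0.94 ± 0.30 and Col6a2 by 0.95 ± 0.29, while Col6a6 fell by 0.36 ± 0.12 (limma adjusted p = 0.0234). The basement membrane pair moved together, Col4a1 by 0.58 ± 0.20 (limma adjusted p = 0.0281) and Col4a2 by 0.59 ± 0.17 (limma adjusted p = 0.0081). The other chain that fell was Col15a1, by 0.54 ± 0.18 (limma adjusted p = 0.0238). The calls of Col4a1, Col4a2, Col6a1, Col15a1 and Col12a1 (1.00 ± 0.27) were lost without 96 h anisotropic unstretched replicate 2. That of Col4a1 was also lost without any 6 h array, that of Col6a1 without 6 h replicate 1, that of Col15a1 without 6 h replicate 2 or 96 h replicate 3, and that of Col6a6 without any 6 h array or 96 h replicate 1.

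Set against cells at 0 h, isotropic unstretched tissue at 6 h had 2 collagens higher and 13 lower (19.1% and 12.5% of all genes), at 24 h 5 higher and 4 lower (20.8% and 16.1%), and at 96 h 7 higher and 3 lower (21.8% and 16.1%). In both directions together 15, 9 and 10 of the 36 were called at the 3 times, beside 31.7%, 36.8% and 37.9% of all genes. These 3 comparisons share the 0 h arrays. Without the 2 arrays that stand apart the counts were 3 higher and 17 lower at 6 h (20.6% and 14%), 5 and 6 at 24 h (22.5% and 17.4%), and 19 and 2 at 96 h (21.5% and 16.4%). The array labelled 96 h isotropic unstretched replicate 1 alone moved the 96 h count to 20 when left out. The 15 calls at 6 h became 9 without 6 h isotropic unstretched replicate 1.

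Col6a6, a type VI chain related to Col6a3, had at 0 h a lowest signal of 6.43, a median of 7.35 and a highest of 7.44. In isotropic unstretched tissue it had 5.65, 5.91 and 5.81 at 6 h, 5.46, 5.48 and 5.31 at 24 h, and 5.43, 5.42 and 5.72 at 96 h. Every later array was below every 0 h array. The differences from 0 h were -1.50 ± 0.11, -1.80 ± 0.11 and -1.76 ± 0.11 (limma adjusted p = 4.3e-13, 8.9e-16 and 1.6e-15). Col15a1 fell at all 3 times, with differences of -0.82 ± 0.16, -1.31 ± 0.16 and -1.97 ± 0.16 (limma adjusted p = 0.0001, 2.9e-08 and 3.6e-12). Its 96 h arrays had 5.81, 6.09 and 6.45, against 0 h arrays with a lowest signal of 7.15, a median of 7.91 and a highest of 8.36.

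Col14a1 and some fibrillar chains were lower at 6 or 24 h than at 0 h, and other fibrillar chains were higher at 96 h. Col14a1 fell by 1.77 ± 0.33 at 6 h and by 2.78 ± 0.33 at 24 h (limma adjusted p = 6.6e-05 and 1.9e-08). At 96 h its difference was -1.26 ± 0.33 (limma adjusted p = 0.0025) as labelled, and -0.42 without the 2 arrays that stand apart (limma adjusted p = 0.0661). Col1a1 fell by 0.78 ± 0.22 at 6 h (limma adjusted p = 0.0061), and Col3a1 fell by 1.44 ± 0.44 at 24 h (limma adjusted p = 0.0085). At 96 h Col5a2 rose by 0.95 ± 0.27 (limma adjusted p = 0.0052) and Col11a1, a chain of fibril nucleation, by 0.85 ± 0.20 (limma adjusted p = 0.00067), while Col1a1 differed by 0.31 (limma adjusted p = 0.295) as labelled and by 0.72 without the 2 arrays (limma adjusted p = 0.00051). The Col5a2 call was lost without 96 h isotropic unstretched replicate 2 or 3.

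Col8a1 and Col12a1 were higher at 24 and 96 h than at 0 h. Col8a1 had at 0 h a lowest signal of 4.93, a median of 5.16 and a highest of 5.27, then 6.41, 6.27 and 5.86 at 24 h and 5.97, 8.23 and 8.51 at 96 h. All of these later arrays were above the 0 h ones. It rose by 1.15 ± 0.42 at 24 h (limma adjusted p = 0.0288), a call lost without any 1 of the 3 arrays of 24 h, and by 2.33 ± 0.42 at 96 h (5.04-fold, limma adjusted p = 2.6e-05). Col12a1 rose by 1.01 ± 0.23 at 24 h (limma adjusted p = 0.00065) and by 1.25 ± 0.24 at 96 h (limma adjusted p = 5e-05). Col18a1 was higher at 6 h by 0.46 ± 0.15 (limma adjusted p = 0.0187, lost without 6 h isotropic unstretched replicate 1 or 3) and at 24 h by 0.64 ± 0.15 (limma adjusted p = 0.00082), and at 96 h by 0.13 without passing.

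Genes that modify, take up or bind collagen were read beside the chains. Of 28 measured collagen-processing genes (of 30 listed), 4 rose and 3 fell in transverse stretch, 5 rose and 2 fell in longitudinal stretch, and 5 rose and none fell in isotropic stretch at 96 h. Among all genes 6.39%, 4.31% and 1.51% were called higher in these 3 stretches, and 8.65%, 5.39% and 1.43% lower. Leprel1, a prolyl 3-hydroxylase that also acts on basement membrane collagen, rose in all 3, by 2.61 ± 0.28, 2.23 ± 0.30 and 1.41 ± 0.27 (limma adjusted p = 9.2e-08, 8.3e-06 and 0.0025). Loxl2, a lysyl oxidase-like crosslinker, rose by 0.84 ± 0.20 in longitudinal and 1.03 ± 0.19 in isotropic stretch. Lox, the main lysyl oxidase, rose by 1.73 ± 0.41 in isotropic stretch (limma adjusted p = 0.015), and its difference was 0.89 without the 2 arrays that stand apart (limma adjusted p = 0.0542). Between 6 and 96 h without stretch 22 of the 28 rose and 1 fell, where 13.4% of all genes rose and 16.4% fell.

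Of 9 measured collagen receptors and uptake genes (of 10), 2 rose and 1 fell in transverse stretch and none passed in the other stretches at 96 h. The 1 that fell was Ddr2, a receptor tyrosine kinase for fibrillar collagen, by 0.73 ± 0.17 (limma adjusted p = 0.0022). Of 14 measured matrix partners (of 15) none rose, and 3 fell in transverse, 4 in longitudinal and 1 in isotropic stretch. Beside both lists, 15%, 9.7% and 2.94% of all genes were called in either direction in transverse, longitudinal and isotropic stretch. Dcn, the small proteoglycan decorin on collagen fibrils, fell in all 3 stretches, with differences of -3.03 ± 0.31, -2.66 ± 0.33 and -1.50 ± 0.31 (limma adjusted p = 7.5e-08, 3.7e-06 and 0.0042). Lum, lumican, fell too, with differences of -3.25 ± 0.45 and -2.89 ± 0.48 in transverse and longitudinal stretch. Between 6 and 96 h 4 receptors rose and 2 fell, and 7 partners rose and none fell. Over that interval 13.4% of all genes rose and 16.4% fell.

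Markers of other cells moved with the chains that fell. Of 10 fibroblast markers, which include Dcn, Lum and Ddr2, none rose and 7 fell in transverse stretch, 7 in longitudinal and 3 in isotropic stretch at 96 h. Their mean log2 signal was 6.42 to 6.97 in transverse stretch, 6.86 to 7.05 in longitudinal stretch and 8.46 to 9.07 in anisotropic unstretched tissue, and 6.74 to 7.95 in isotropic stretched against 6.93 to 8.75 in isotropic unstretched tissue. Of 12 macrophage markers none rose and 10, 10 and 6 fell, where 8.65%, 5.39% and 1.43% of all genes were called lower. Their mean was 5.14 to 5.80 in transverse stretch, 5.01 to 5.48 in longitudinal stretch and 6.61 to 6.83 in anisotropic unstretched tissue, and 5.17 to 5.88 in isotropic stretched against 5.89 to 6.47 in isotropic unstretched tissue. At 24 h 2, 3 and 5 fibroblast markers fell in transverse, longitudinal and isotropic stretch, beside 0.919%, 1.44% and 2.95% of all genes. The part of these cells in the falls of Col14a1, Col6a1, Col6a2 and Col15a1 was not tested.

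In the other marker lists a smaller share was called with stretch than in the fibroblast and macrophage lists. Of all genes 15%, 9.7% and 2.94% were called at 96 h in transverse, longitudinal and isotropic stretch, in both directions together. At 96 h, in transverse, longitudinal and isotropic stretch, 2, 1 and 1 of 7 endothelial markers fell and none rose, 1, 1 and 0 of 6 epicardial markers fell, and none of 5 Schwann cell markers passed. Of 10 cardiomyocyte markers 2, 1 and 1 rose and 2, 2 and 0 fell, and of 7 smooth muscle and pericyte markers 2, 1 and 0 rose and 2, 1 and 0 fell. With time the endothelial list fell as a whole. All 7 were lower at 96 h than at 0 h in isotropic unstretched tissue, where 16.1% of all genes were called lower. Their mean was 5.10 to 5.42 at 96 h, against 7.95 to 8.51 at 0 h. Col15a1 and Col6a6 fell over the same interval, and the part of endothelial cells in that was not tested. Between 6 and 96 h in anisotropic unstretched tissue 6 of 10 fibroblast and 5 of 12 macrophage markers rose and none fell. Of all genes 13.4% rose and 16.4% fell. The part of fibroblasts and macrophages in the rise of the 28 chains was not tested either.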

How the data were processed

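RNA of 51 rat tissue samples in 16 groups was measured on 51 Affymetrix arrays. Per the submitters' processing notes, the arrays were summarised with RMA in Affymetrix Expression Console, and limma was used for differences. Their versions and the annotation date are not stated there. The values used are the authors' deposited log2 signals, and 2 deposited tables held identical values. Array medians lay between 5.31 and 5.43, and the number of arrays limits the precision. Of 29214 probe sets, 20360 had 1 gene symbol, 62 several and 8792 none, and the highest-mean probe set stood for each of 18602 genes (1022 genes had more than 1; Col24a1 and Col4a2 had 2). All 36 collagens matched RefSeq by symbol.

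Group differences were fitted with limma 3.58.1 in R 4.3.3 (lmFit, eBayes) on all 51 arrays, with groups from the labels and the harvest as a fixed term (30 residual degrees of freedom), in 19 pairwise comparisons and 6 moderated F tests. P-values were adjusted by Benjamini-Hochberg over all 18602 genes, and 95% intervals use the moderated degrees of freedom. The fit was tested on simulated data. The harvest numbers pair samples, as the labels state a shared cell isolate: deviations from group means correlated at a mean r of 0.2193 between arrays of a harvest in different groups, against -0.0484 between harvests. By the labels the arrays of a group came from different harvests, and so from different cell isolates. How many animals a harvest held is not stated. The p-values measure the spread between cultures of these harvests after the harvest term.

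The authors' deposited log2 fold changes against 0 h were compared with differences of group means within 0.001. Of 15 columns 13 equalled some labelled group, and all 15 did with the 2 arrays that stand apart exchanged. Only 7 and 8 equalled the group that the letters of their own header name. The 3 headed sm held anisotropic unstretched tissue, the 3 headed ip isotropic stretched tissue, and 1 of 2 headed im at 96 h the 24 h group. The labels were used, and an alternative chosen after seeing the data trades these 2 groups.

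Members and lists (the 4 classes, collagen processing, receptors and uptake, matrix partners, and markers of 7 cell types) were chosen with earlier results of these data known. Named were up to 6 largest called rises and falls per comparison, 12 fixed collagens whatever their result, collagens passing an F test, and up to 3 largest called changes of each other list. Alternatives were no harvest term, harvest as a random block, each harvest's own 0 h array subtracted, the 2 arrays exchanged or left out, quantile normalization repeated, dim genes left out, the mean of a gene's probe sets, and each array of the groups compared left out in turn. Promoter sequences came from RefSeq's GRCr8 table, where 29 of 36 collagens matched. Figures were drawn with matplotlib 3.10.9.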

Additional observations from a re-analysis of the deposited data

Results flagged for a closer look

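Stretch responses that differed between times were flagged by limma's moderated F test across 6, 24 and 96 h, the responses being stretched minus unstretched log2 differences. Col14a1 had responses of -0.03, -0.09 and -2.26 at 6, 24 and 96 h in isotropic tissue (adjusted p = 0.04359), a call lost without any of 14 of the 18 arrays of that tissue. It had 0.11, -0.24 and -3.22 in longitudinal stretch (adjusted p = 0.0007722) and 0.16, -0.19 and -3.59 in transverse stretch (adjusted p = 9.407e-05). The isotropic responses at 24 and 96 h as labelled each include 1 of the 2 arrays that stand apart. Without the 2 arrays the isotropic value of Col14a1 was adjusted p = 2.05e-08 by the same limma test. Col6a1 had -0.20, -0.68 and -2.17 in transverse stretch (adjusted p = 0.01609), a call lost without 96 h anisotropic unstretched replicate 2 or transverse replicate 1. None of these 4 passed with the anisotropic unstretched and isotropic stretched groups traded as the authors' headers read.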

How the results depend on the processing

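Counts of called collagens moved with the 2 arrays that stand apart. In isotropic, longitudinal and transverse stretch at 96 h the counts were 5, 7 and 8 as labelled, and 9, 12 and 16 with the 2 arrays exchanged. With them left out, the longitudinal and transverse counts were 12 and 16. In isotropic stretch at 24 h the count of 2 became 8 exchanged and 9 left out, and in transverse stretch at 24 h none became 2 exchanged and 3 left out. Isotropic unstretched tissue at 96 h against 0 h had 10, which became 24 exchanged and 21 left out. Chains whose response differed over time numbered 1 in isotropic, 1 in longitudinal and 2 in transverse stretch, which became 3, 3 and 7 exchanged and 4, 3 and 7 left out. No share of all genes is given here for the exchanged arrays or for the settings below. Those counts therefore do not set collagens apart from other genes.

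Without the replicate block (harvest term) the counts were 6 in place of 15 for 6 h against 0 h, 1 in place of 2 for longitudinal and 1 in place of 0 for transverse stretch at 24 h, 1 in place of 5 for isotropic stretch at 96 h, and 0 in place of 1 for the isotropic response over time. With harvest as a random block the transverse count at 24 h was 1. When the 0 h array of the same harvest was subtracted, the counts were 0 for isotropic and 0 for longitudinal stretch at 24 h, 1 for isotropic and 5 for transverse stretch at 96 h, and 0 for the isotropic response over time. That setting gives no value for comparisons with 0 h. Repeated quantile normalization gave 5 for isotropic stretch at 24 h. Leaving out dim genes, or taking the mean of a gene's probe sets, moved none of the 25 counts by more than 1.5 times.

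With each array of the groups compared left out in turn, and no array of other groups, the counts moved as follows. Against 0 h they were 9 to 16 at 6 h, 7 to 10 at 24 h and 9 to 20 at 96 h. For 96 h against 6 h they were 19 to 29. At 24 h they were 1 to 6 for isotropic, 0 to 1 for longitudinal and 0 to 1 for transverse stretch. The same stretches at 96 h had 1 to 4, 4 to 6 and 5 to 7. For the response over time they were 0 to 2, 1 to 2 and 1 to 3 in isotropic, longitudinal and transverse stretch. The calls that stayed in every such fit numbered 5 of 8 in transverse, 3 of 7 in longitudinal and 1 of 5 in isotropic stretch at 96 h. With the 2 groups kept as labelled, no called difference of a named collagen changed sign in any setting. The 3 arrays a group limit the precision to the SE printed beside each difference. Causes of the moved counts were not tested.

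With anisotropic unstretched and isotropic stretched tissue traded as the authors' headers read, an alternative chosen after seeing the data, the counts were 0, 0 and 0 for isotropic, longitudinal and transverse stretch at 96 h, 0 and 0 for isotropic and longitudinal stretch at 24 h, 0 for each response over time, and 2 at 24 h and 5 at 96 h for anisotropic against isotropic unstretched tissue. No share of all genes is given beside these traded counts. Values that turned sign were, in isotropic stretch at 96 h, 1.0723 for Col14a1 and 0.5449 for Col6a1, in longitudinal stretch 0.1103 for Col14a1, 0.0327 for Col6a1, 0.2291 for Col15a1 and, at 24 h, 0.0605 for Col15a1, and in transverse stretch at 96 h Col7a1 had -0.0034 and Col15a1 0.0027. Between anisotropic and isotropic unstretched tissue at 96 h they were -1.1797 for Col6a1 and -2.2561 for Col14a1, and between 96 and 6 h Col6a1 had -0.3948 and Col14a1 -1.7277.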
